A study of Mus musculus with 6 samples.

Results

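Levels of 10 genes that mark GABAergic interneurons, the inhibitory local neurons of the brain, were followed in 6 coronal sections, each from the brain of a male C57BL/6J mouse. The genes were Gad1, Gad2, Slc32a1, Pvalb, Sst, Vip, Npy, Cck, Calb2 and Lhx6. They were taken by symbol from the 19465 genes that the count files list, and all 10 were present in every file and passed the filter on low counts in every region tested. On GRCm38, with GENCODE vM21, 4 of them lie on chromosome 2. These are Gad1 (70553072 to 70602014, plus strand), Gad2 (22622205 to 22693874, plus), Slc32a1 (158610767 to 158615748, plus) and Lhx6 (36081953 to 36105408, minus). Pvalb lies on chromosome 15 (78191114 to 78206400, minus), Sst on chromosome 16 (23889573 to 23890958, minus) and Vip on chromosome 10 (5639218 to 5647617, plus). Npy lies on chromosome 6 (49822710 to 49829507, plus), Cck on chromosome 9 (121489824 to 121495694, minus) and Calb2 on chromosome 8 (110137502 to 110168210, minus).

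GABAergic neurons make their transmitter from glutamate with the enzymes encoded by Gad1 and Gad2, and load it into vesicles with the transporter encoded by Slc32a1. Cortical and hippocampal interneurons are commonly divided into classes by a calcium-binding protein (Pvalb, Calb2) or a neuropeptide (Sst, Vip, Npy, Cck), and Lhx6 is a transcription factor of those born in the medial ganglionic eminence, chiefly the Pvalb and Sst classes. None of the 10 is restricted to interneurons. Striatal projection neurons and the reticular thalamus (RT) are also GABAergic, Cck is made by many excitatory neurons of the cortex, hippocampus and thalamus, Calb2 by neurons of the midline thalamus and habenula, and Npy by neurons of the arcuate nucleus of the hypothalamus.

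There were 2 sections per age, from untreated mice without a transgene. P21 mice (postnatal day 21) were bred from Jackson Laboratory animals, adults (12 to 15 weeks in the labels) came from Jackson, and aged mice (28 months) came from the NIA, per the labels. The paper names only Jackson Laboratory as the source. P21 and adult sections lay directly on Visium v1 slides, whereas aged sections were transferred with the CytAssist instrument to Visium v2 slides. The paper also describes an enhanced probe design for the aged libraries, meant to raise capture sensitivity. Platform below means slide, transfer and probes together. Age, platform and source of the mice cannot be told apart in aged vs. adult. Visium counts probe molecules (unique molecular identifiers, UMIs) in spots that each cover several cells. Sections had 2917 to 3679 spots with medians of 12074.5 to 25535 UMIs per spot, and levels below are CPM, the gene's UMIs per 1000000 UMIs of the zone. Spots were grouped again from the counts, without the 10 genes, into the RT and 8 further regions, abbreviated CTX for cortex, STR for striatum, HP for hippocampus, HB for habenula, TH for thalamus, FT for fiber tracts, HY for hypothalamus and VS for the ventricular system. In bulk sums of spots, fewer cells of a type and less RNA per cell cannot be told apart, and probe levels were compared between zones and ages, not between genes.

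The sections were not cut at the same level of the hypothalamus. Hcrt, a peptide of the lateral hypothalamus, stood at 305 and 324 CPM in the HY of the P21 sections, at 0.318 and 948 CPM in adult sections 1 and 2, and at 1846 and 1.09 CPM in aged sections 1 and 2. Agrp, a peptide of the arcuate nucleus, reached 78.4 and 85.9 CPM in the HY at P21, against 0.477 and 0.933 CPM in adults and 1.96 and 1.26 CPM in aged sections. Among markers of other cells, the 7 oligodendrocyte genes summed to 24777 and 25964 CPM at P21 to 12606 and 12269 CPM in adults and to 8104 and 7926 CPM in aged sections, with all 7 below adult in both aged sections. The 4 erythrocyte genes summed to 2266 and 1284 CPM at P21, to 320 and 166 CPM in adults and to 140 and 228 CPM in aged sections, and the 8 pan-neuronal genes to between 6971 and 8155 CPM in all 6 sections. Whether these differences bear on the levels below was not tested.

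Between P21 and adult, 2 of the 10 genes were called over whole sections, a call being a fold change over 1.5 at an adjusted p under 0.05 by edgeR's quasi-likelihood test. Calb2 was higher at P21 and Pvalb was lower, while 8.06% of all genes tested were called. Within regions the call fell on 1 gene in the CTX (6.44% of all genes called), 2 in the TH (7.72%) and 1 each in the FT (9.34%), HP (6.87%), HY (4.33%) and STR (3.93%). Calb2 accounted for 5 of these 7 calls, Pvalb in the TH and Npy in the HY for the others. The members' median log2 fold change over whole sections was 0.00, as was that of all genes.

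In aged vs. adult, 2 genes were called over whole sections, Gad1 and Npy, both higher, beside 28.4% of all genes tested. In the CTX 3 were called (Gad1, Npy and Vip, all higher, with 12.7% of all genes called), and in the HP 3 (Gad1 and Npy higher, Calb2 lower, with 11.7%). The TH had 7 calls, 2 higher and 5 lower (14.9% of all genes), the HY 3, 1 higher and 2 lower (11.2%), the STR 8, 4 in each direction (14.8%), and the FT 3, 1 higher and 2 lower (31.0%). The median log2 fold change of the 10 genes was 0.34 over whole sections and -0.62 in the TH, against 0.04 and 0.00 for all genes. Both comparisons use the same adult sections.

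**Figure D1:**
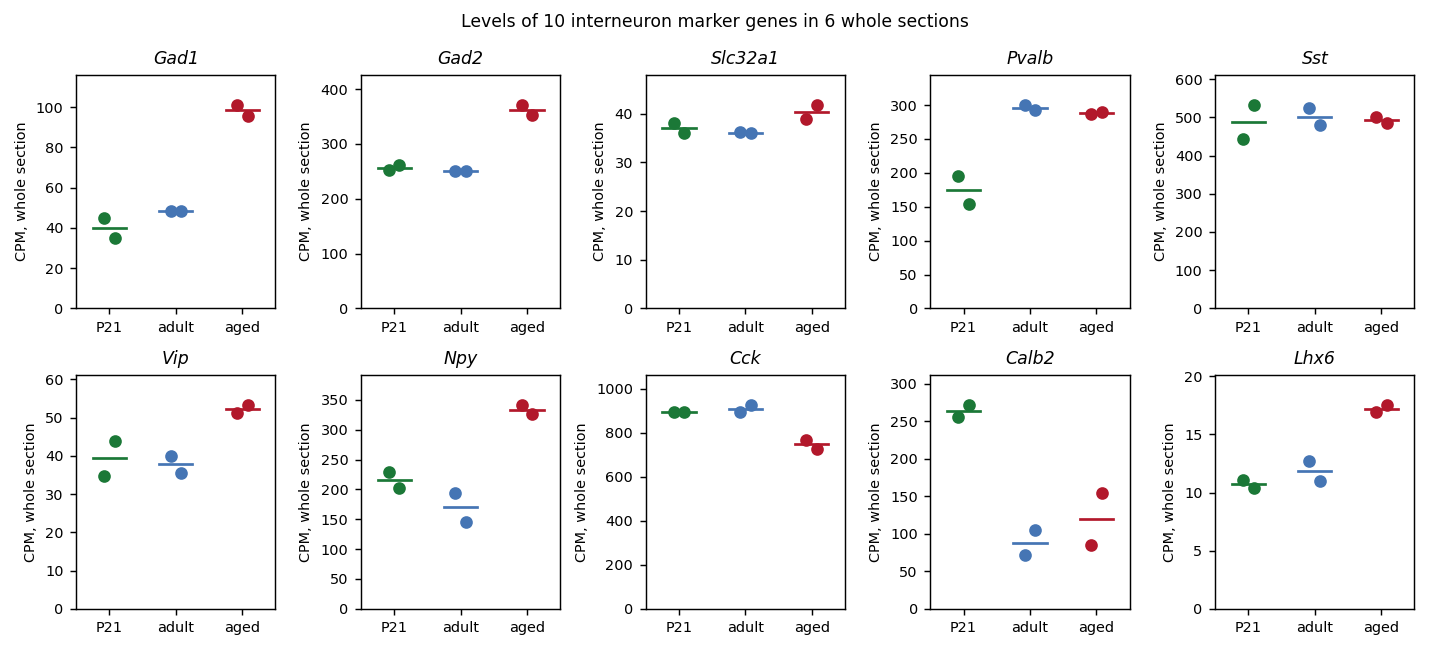
Each panel plots 1 gene in CPM (linear axis from 0) for the 2 whole sections of each age, with a line at their mean. Calb2 stands highest at P21 and Pvalb lowest, while both aged sections lie above the other 4 for Gad1, Gad2, Slc32a1, Vip, Npy and Lhx6 and below them for Cck.

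The change depended on the region for some genes. A fit over sections and 6 regions, with each section as a block, tested the region-by-age terms, and in P21 vs. adult 3 members passed (Calb2, adjusted p = 4.49e-05; Cck, 0.0236; Npy, 0.0273), where 8.08% of all genes did. In aged vs. adult all 10 passed, with adjusted p from 2.58e-11 for Cck to 0.0432 for Pvalb, where 38.9% of all genes did.

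**Figure D2:**
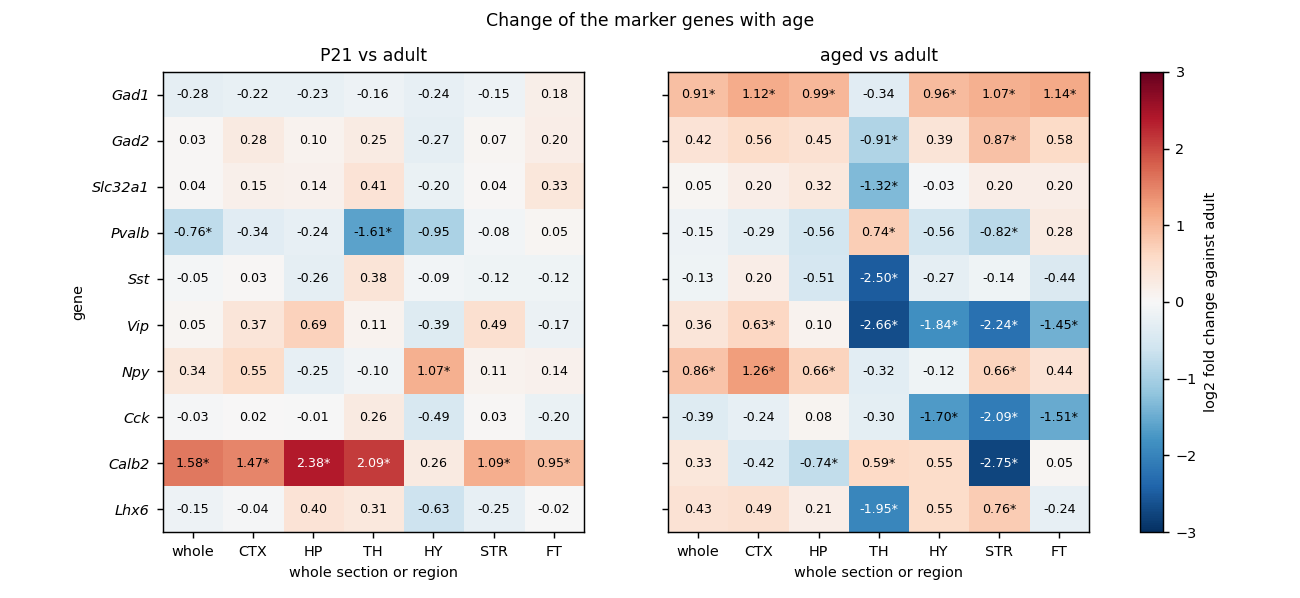
Cells give the log2 fold change against adult (red higher, blue lower) of each gene over the whole section and in 6 regions, and an asterisk marks a call by edgeR. Calb2 is called in 5 of 6 regions at P21, and in aged sections Gad1 is called higher outside the TH while Vip, Cck and Sst fall by 2.66, 2.09 and 2.50 in their lowest regions.

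The genes of GABA synthesis and loading were highest where projection neurons or the whole nucleus are GABAergic. Gad1 was lowest in the TH and highest in the STR of the 6 regions, and each of the 4 steps STR over HY, HY over FT, CTX over HP and HP over TH held in 6 of 6 sections, whereas FT over CTX held in 4. The RT, 25 to 54 spots per section, lay far above: Gad1 stood at 349 and 357 CPM there at P21, 326 and 359 CPM in adults and 1085 and 970 CPM in aged sections. Gad2 in the RT was 938 and 1047, 878 and 1002, and 2278 and 2451 CPM in the same order, so that the aged sections lay above the other 4 for both enzymes. Slc32a1 in the RT was 121 and 184 CPM at P21, 130 and 136 CPM in adults and 220 and 233 CPM in aged sections. The RT was described and not fitted.

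Gad1, the source of most GABA outside synapses, was higher in aged sections and not called between P21 and adult. Whole sections held 44.8 and 34.9 CPM at P21, 48.3 and 48.6 CPM in adults and 101 and 95.7 CPM in aged mice, and the aged values did not overlap the others. The rise was 1.88-fold (log2 fold change 0.91 ± 0.10 SE, edgeR adjusted p = 5.18e-05). In the CTX the values were 38.4 and 31.1, 43.8 and 38.3, and 83.7 and 97.7 CPM, a log2 fold change of 1.12 ± 0.11 (adjusted p = 9.84e-06). The HP (0.99), HY (0.96), STR (1.07) and FT (1.14) were also called. The HY call was lost without adult section 1 (0.76, adjusted p = 0.0915). In the TH, where Gad1 was 23.7 and 23.3 CPM in adults and 17.2 and 19.3 CPM in aged sections, it was not called (adjusted p = 0.103), and among TH spots whose neighbours were all TH spots it fell by 1.37 on the log2 scale.

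Gad2, the enzyme found mainly at axon terminals, moved less. Whole sections held 252 and 261 CPM at P21, 250 and 250 CPM in adults and 371 and 352 CPM in aged mice. The 2 aged sections lay above all others, but the log2 fold change of 0.42 (adjusted p = 0.000313) stayed under the fold threshold. It was called in the STR, which held 600 and 565 CPM in adults and 1069 and 1064 CPM in aged sections (0.87 ± 0.09, adjusted p = 3.30e-07). The 8 markers of striatal projection neurons, which are GABAergic, summed to 6132 and 5675 CPM in the adult STR and to 8027 and 8731 CPM in the aged STR, with 7 of 8 above adult in both aged sections, and their part in the rises of Gad1 and Gad2 there was not tested. In the TH, Gad2 fell by 0.91 (edgeR adjusted p = 7.23e-05), from 108 and 109 CPM to 59.3 and 54.0 CPM. Its rises in the CTX (0.56, adjusted p = 0.000114), FT (0.58, 9.72e-06) and HP (0.45, 0.0402) passed the p but not the fold threshold. Without adult section 1 the CTX change was 0.61. Without aged section 2 the HP, HY and FT changes were 0.73, 0.61 and 0.64.

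Slc32a1 held its level over whole sections within a narrow range, 38.2 and 36.1 CPM at P21, 36.3 and 36.0 CPM in adults and 39.0 and 41.8 CPM in aged mice. Neither comparison was called (adjusted p = 0.745 and 0.512). The TH was the region where it was called, with a fall by 1.32 in aged sections (adjusted p = 0.000401) from 13.1 and 14.8 CPM to 5.95 and 5.07 CPM.

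Pvalb encodes parvalbumin, the calcium buffer of fast-spiking neurons. Its level was lower at P21, with 195 and 154 CPM in whole sections against 300 and 292 CPM in adults and 287 and 290 CPM in aged mice. The log2 fold change in P21 vs. adult was -0.76 ± 0.09 (adjusted p = 0.000177). Of the 6 regions the TH was the one called, though the region-by-age terms did not pass (adjusted p = 0.0748). Pvalb there was 124 and 103 CPM at P21, 325 and 381 CPM in adults and 609 and 552 CPM in aged sections, and the 3 ages did not overlap. The change was -1.61 ± 0.12 at P21 (adjusted p = 2.11e-05) and 0.74 ± 0.11 in aged sections (adjusted p = 0.000785), both against adult. In the HY, the P21 difference (-0.95, adjusted p = 0.216) passed without aged section 1 (-0.94, adjusted p = 0.0109) or aged section 2 (-0.94, adjusted p = 0.0112).

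In the CTX, Pvalb was 231 and 190 CPM at P21, 305 and 230 CPM in adults and 175 and 267 CPM in aged sections, and the ages overlapped (adjusted p = 0.168 and 0.157). Without aged section 2 the fall in aged vs. adult passed the thresholds (-0.60, adjusted p = 0.00802). Within the CTX it was highest in an unnamed cluster led by Kcnab3, Plcxd2 and Rorb, from 297 to 522 CPM over the 6 sections, and lowest in the piriform and amygdala cluster, from 37.5 to 86.5 CPM. The latter made up 180 of 860 and 225 of 972 CTX spots in adults. In aged sections it made up 349 of 1155 and 353 of 1132. The Kcnab3 cluster held 313 and 340 of these spots in adults and 330 and 305 in aged sections. What part this make-up has in the CTX changes of Pvalb and the other members was not tested. Pvalb in the STR was 160 and 94.7 CPM in adults and 43.0 and 101 CPM in aged sections. The call there (-0.82, adjusted p = 0.0151) was made on overlapping values and was lost without adult section 1 (-0.38) or aged section 1 (-0.34), and was -1.59 without aged section 2. The RT had the highest levels of all named regions, 2495 and 2906 CPM at P21, 2618 and 3124 CPM in adults and 3951 and 4438 CPM in aged sections.

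Calb2 encodes calretinin, the calcium-binding protein of many Vip-class interneurons and of midline thalamic neurons. It was the member that differed most between P21 and adult. Whole sections held 255 and 271 CPM at P21, 71.0 and 105 CPM in adults and 85.5 and 154 CPM in aged mice, with the P21 sections above all others. The rise at P21 was 2.98-fold (1.58 ± 0.22, adjusted p = 0.000443). In the CTX it was 60.4 and 75.6 CPM at P21, 22.7 and 26.0 CPM in adults and 18.0 and 18.9 CPM in aged sections. The log2 fold change there was 1.47 ± 0.12 (adjusted p = 3.32e-06), and it was higher at P21 in each of the 4 cortical clusters.

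The HP showed the largest rise of Calb2 among the 6 regions. It held 196 and 177 CPM at P21, 29.7 and 40.7 CPM in adults and 25 and 16.8 CPM in aged sections (2.38 ± 0.17, adjusted p = 4.45e-06). Levels were higher at P21 in every subregion. The dentate gyrus (DG) stood at 217 and 194 CPM at P21 and at 23.8 and 24.8 CPM in adults. CA3 stood at 96.6 and 48.1 against 5.98 and 8.67 CPM, and CA1-2 at 48.9 and 40.7 against 5.0 and 14.3 CPM. The matrix, the hippocampal layers rich in glial genes, held 252 and 233 against 53.4 and 77.0 CPM. These 4 subregions were described and not fitted. Pmch, a hypothalamic peptide gene, stood in the HP at 124 and 93.8 CPM at P21 and at 4.59 and 31.9 CPM in adults. Its HY levels were 2829 and 1757 CPM at P21 and 168 and 2384 CPM in adults. What part RNA from other regions has in the Calb2 rises of the HP, CTX, STR and FT was not tested.

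In the TH, Calb2 was 584 and 543 CPM at P21, 132 and 136 CPM in adults and 185 and 213 CPM in aged sections. The log2 fold change at P21 was 2.09 ± 0.09 (adjusted p = 7.10e-07). Of the 2 TH clusters, the one led by Ctxn3 and Cbln1 held 1441 and 1142 CPM at P21 and 385 and 482 CPM in adults, and the one led by Prkcd and Tnnt1 held 306 and 255 against 69.6 and 104 CPM. The STR (1.09) and FT (0.95) were also called. The HY was the exception, with 358 and 360 CPM at P21 and 246 and 351 CPM in adults (adjusted p = 0.613). The HB, seen in 5 of the 6 sections, had the highest levels and no such step: 1102 and 1153 CPM at P21, 1497 CPM in adult section 2 and 1183 and 1000 CPM in aged sections.

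In aged vs. adult, Calb2 fell by 2.75 in the STR (adjusted p = 6.08e-08), from 26.5 and 27.0 CPM to 3.76 and 4.08 CPM, and by 1.61 with regions from the next clustering resolution. It fell by 0.74 in the HP, a call lost without adult section 2 (-0.47) or aged section 2 (-0.43). The matrix, where Calb2 was highest within the HP at P21 and in adults, made up 240 of 332 and 292 of 404 HP spots in adults. In aged sections the matrix made up 157 of 276 and 130 of 238 HP spots, and its part in the fall was not tested. In the TH Calb2 rose by 0.59, just over the fold threshold, and dropped under it without adult section 1 (0.56) or aged section 2 (0.51). The HY held 294 and 603 CPM in aged sections 1 and 2, in which Hcrt differed as given above. Over whole sections the comparison was not called, but passed without adult section 2 (0.63) or aged section 1 (0.68).

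**Figure D3:**
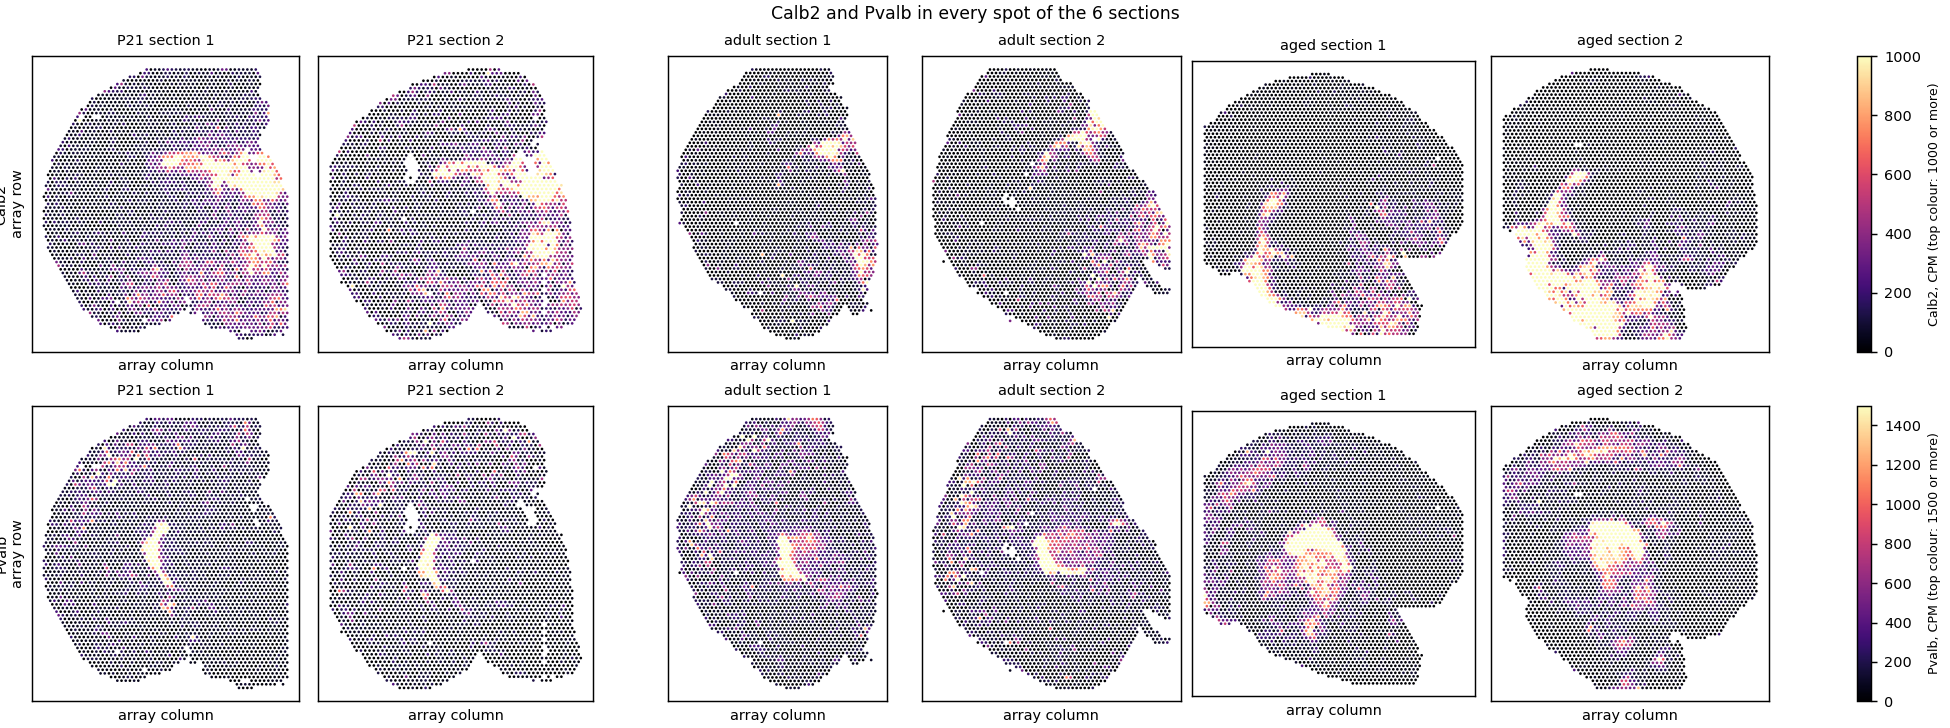
Every spot of the 6 sections is drawn at its array position, in the orientation deposited, and coloured by the CPM of Calb2 (upper row, scale to 1000) or Pvalb (lower row, scale to 1500). At P21 Calb2 covers a broad midline and hippocampal field that is narrower in the adult sections, and the thalamic Pvalb field beside the bright RT grows from the P21 to the adult and aged sections.

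Sst encodes somatostatin, the peptide of dendrite-targeting interneurons. Over whole sections it held 443 and 532 CPM at P21, 523 and 480 CPM in adults and 500 and 486 CPM in aged mice, all overlapping. The CTX held 539 and 614, 607 and 529, and 644 and 675 CPM, and neither comparison was called (adjusted p = 0.876 and 0.0832). Of the zones the HY cluster led by Cartpt, Baiap3 and Nts was among the highest, from 1134 to 1611 CPM. The upper cortical layers (232 to 460 CPM) were below the deep layers (584 to 944 CPM) in each section. In the TH, Sst fell by 2.50 in aged vs. adult (edgeR adjusted p = 2.65e-06), from 165 and 143 CPM to 30.1 and 23.2 CPM. Its falls in the HP (-0.51, adjusted p = 0.0247) and FT (-0.44, 0.000113) passed the p but not the fold threshold. Without aged section 1 the HP change was -0.62. The HY change, -0.27 with all sections, was then -0.84.

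Npy encodes neuropeptide Y, made by a part of the Sst class and by neurogliaform interneurons. It was higher in aged sections, with 341 and 326 CPM against 194 and 146 CPM in adults and 229 and 203 CPM at P21. The rise over adult was 1.82-fold (0.86 ± 0.11, adjusted p = 0.000113). In the CTX it was 328 and 285 CPM at P21, 233 and 187 CPM in adults and 517 and 498 CPM in aged sections. The aged sections lay above all others (1.26 ± 0.10, adjusted p = 2.81e-06), and P21 above adult by 0.55, which passed the p but not the fold threshold (adjusted p = 0.00250) and passed both without P21 section 2 (0.65) or adult section 1 (0.71).

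Npy calls outside the CTX were less stable. In the HP (0.66, adjusted p = 0.0222) the call was lost without P21 section 1 (adjusted p = 0.0611), P21 section 2 (0.0604), adult section 2 (0.228) or aged section 1, where the change dropped to 0.30. In the STR (0.66, adjusted p = 0.00876) it was lost without adult section 2 (0.35) or aged section 2 (0.33). In the HY, Npy was 267 and 254 CPM at P21, 112 and 136 CPM in adults and 142 and 91.5 CPM in aged sections. The rise at P21 of 1.07 ± 0.19 (adjusted p = 0.0130) stood beside the Agrp levels given above, which were likewise high only in the P21 sections, and the part of the arcuate nucleus in it was not tested. It was lost without P21 section 1 (adjusted p = 0.142), P21 section 2 (0.120) or adult section 1 (0.109).

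Vip encodes vasoactive intestinal peptide, the peptide of interneurons that mainly inhibit other interneurons. The CTX led the 6 regions in all 6 sections, with 67.7 and 101 CPM at P21, 66.4 and 63.0 CPM in adults and 98.8 and 104 CPM in aged sections. The aged sections were above adults by 0.63 ± 0.13 (adjusted p = 0.00226). At P21 the CTX difference was 0.37 (adjusted p = 0.0824) and passed both thresholds without P21 section 1 (0.65, adjusted p = 0.00281). Upper layers held 130 and 190 CPM at P21, 130 and 104 CPM in adults and 265 and 246 CPM in aged sections, against 29.3 to 54.0 CPM in deep layers over the 6 sections. Over whole sections neither comparison was called, and the aged difference of 0.36 (adjusted p = 0.00778) was under the fold threshold.

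Cck encodes cholecystokinin, a peptide of basket cells and of many excitatory neurons. Over whole sections it held 894 and 894 CPM at P21, 893 and 925 CPM in adults and 768 and 728 CPM in aged mice. The aged sections lay below all others, by -0.39 on the log2 scale (adjusted p = 0.000536), under the fold threshold. Within the HP, CA1-2 held 2154 to 2466 CPM and the DG 327 to 527 CPM over the 6 sections, and the ages overlapped in CA3 (1605 to 1751 CPM). In the CTX it was 1195 and 1199, 1127 and 1240, and 1027 and 1001 CPM.

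Lhx6 stood at 10.4 to 12.7 CPM in the P21 and adult whole sections and 16.9 and 17.5 CPM in the aged. The aged change of 0.43 (adjusted p = 0.00305) passed the p but not the fold threshold. In the CTX it was 16.9 and 14.2, 16.8 and 15.8, and 22.4 and 23.9 CPM (0.49, adjusted p = 0.00357). In the HY cluster led by Cartpt, Baiap3 and Nts, aged sections held 61.6 and 83.7 CPM and the other 4 from 22.8 to 40.9 CPM. The STR call (0.76, adjusted p = 0.0423) was lost with a replicate block (0.73, adjusted p = 0.0549) and without each section but aged section 1, and was 0.51 without adult section 1 and 0.49 without aged section 2.

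**Figure D4:**
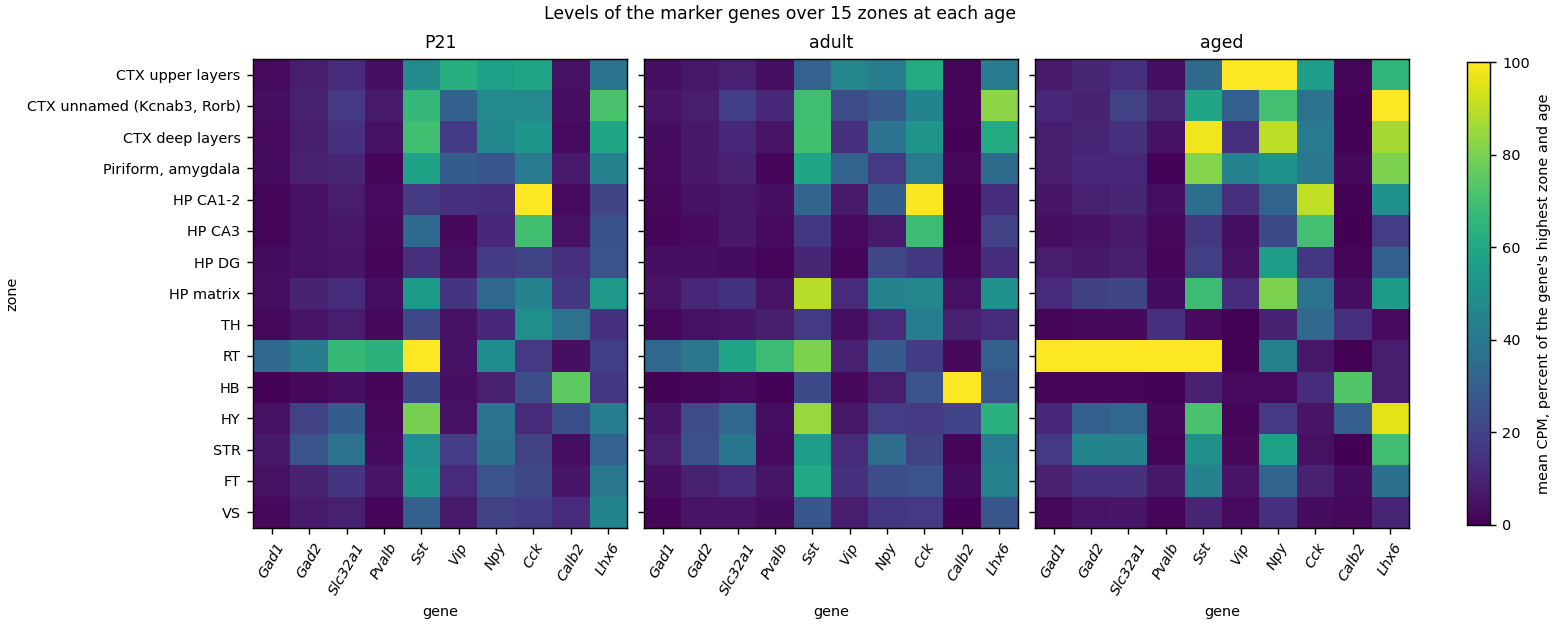
Colours give the mean CPM of each gene in 15 zones at each age (2 sections per age, 1 for the adult HB) as a percent of the gene's highest zone and age. The brightest cell is the aged RT for Gad1, Gad2, Slc32a1 and Pvalb, CA1-2 at P21 for Cck, the adult HB for Calb2 and the aged upper cortical layers for Vip and Npy.

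Several members fell in aged sections in regions where their adult level was below that of the CTX. Not every such member fell. Gad1 rose in the HP (38.1 and 38.0 CPM in adults, against 43.8 and 38.3 CPM in the CTX). Lhx6 rose in the STR (9.44 and 13.2 against 16.8 and 15.8 CPM), though that call was not stable. Calb2 fell in the STR, where its adult level (26.5 and 27.0 CPM) was above that of the CTX (22.7 and 26.0 CPM). In the adult STR, Cck stood at 48.1 and 34.0% of its CTX level and Vip at 64.3 and 33.2%. Cck in the STR was 542 and 422 CPM in adults and 94.8 and 132 CPM in aged sections (-2.09 ± 0.13, adjusted p = 4.32e-10). It fell by 1.70 in the HY and by 1.51 in the FT. Vip fell by 2.66 in the TH, where it stood at 2.55 and 0.724 CPM in aged sections, and also in the HY (-1.84), STR (-2.24) and FT (-1.45). Its size rested on single sections: the TH value was -3.86 without aged section 1 and -2.02 without aged section 2, the STR value -1.61 without adult section 1 and -3.19 without aged section 2, and the FT value -2.33 without aged section 2. Lhx6 in the TH was 3.85 and 2.49 CPM in adults and 0.927 and 0.644 CPM in aged sections (-1.95, adjusted p = 0.00259).

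For Slc17a7, Ppp1r1b and Mbp, genes of other cells, levels were taken as a percent of that in a reference region, the CTX, STR and FT in this order. None of them was barred from the clustering, and each was in the marker panel that named its reference region. Their levels are therefore not independent of how spots were grouped. With the other regions this gave 15 pairs of gene and region. Cells of those regions can make these RNAs too, and that share was not separated out. Slc17a7 in the adult HP (2660 and 2991 CPM) was near its adult CTX level (2775 and 3192 CPM). Both aged sections lay below both adult sections in 13 pairs. In the others, Slc17a7 in the HP was higher (95.9 and 93.7% in adults, 127 and 117% in aged sections) and Mbp in the STR overlapped (31.2 and 27.9%, 24.9 and 28.3%). Slc17a7, a glutamate transporter of cortical excitatory neurons, stood in the STR at 35.3 and 34.1% of its CTX level at P21, at 39.1 and 36.7% in adults and at 7.27 and 11.7% in aged sections. Its HY level was 18.1 and 18.0%, 26.6 and 21.5%, and 4.36 and 3.69% of that in the CTX. Ppp1r1b, a striatal projection neuron gene, was in the TH at 4.83 and 4.25%, 6.57 and 4.98%, and 2.48 and 2.37% of its STR level, and Mbp, a myelin gene, in the CTX at 16.1 and 13.0%, 12.7 and 11.1%, and 7.18 and 7.55% of its FT level. Among spots surrounded by spots of their own region, falls in the TH were larger for Gad2 (-1.92), Slc32a1 (-2.22), Sst (-3.18) and Lhx6 (-2.89). That of Vip there was within its SE of the value in all spots (-2.43 against -2.66, SE 0.38). In the STR so were those of Vip (-2.09 against -2.24, SE 0.33) and Calb2 (-2.62 against -2.75, SE 0.25), and that of Cck was larger (-2.70). What part the lower tracer levels have in the falls of Cck, Vip, Sst, Calb2, Lhx6, Gad2 and Slc32a1 was not tested. Age, platform and source of the mice cannot be told apart here.

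The deposited Moran's I, a score of spatial autocorrelation that Space Ranger gives per gene and section, was higher in both aged sections than in the other 4 for each of the 10 genes, as it was for 55.0% of all genes scored in every section. The platform and the source of the mice differ with age here too. For Vip the P21 sections scored 0.178 and 0.114, the adult ones 0.088 and 0.089 and the aged ones 0.523 and 0.545. Gad1 scored 0.132 and 0.10, 0.147 and 0.147, and 0.436 and 0.521. Over the 6 sections the score ran from 0.528 to 0.802 for Cck, from 0.461 to 0.816 for Calb2 and from 0.048 to 0.367 for Lhx6.

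The order of the 6 regions was compared between neighbours by an exact two-sided sign-flip test over the 6 sections, 50 pairs in all. In 19 pairs all 6 sections pointed the same way, with an exact p = 0.031, the smallest that 6 sections allow, and none passed adjustment over the 50 (smallest adjusted p = 0.0822). With that smallest p, a pair can pass only if most pairs reach it together, whatever its size. Not passing is therefore not read as a lack of difference. The neighbours were set from the means of the same sections. Steps with 6 of 6 sections one way included HP over TH for Gad1, Gad2, Slc32a1, Sst and Lhx6, TH over HP for Calb2 (mean log2 ratio 2.24), CTX over HP for Pvalb (0.89), CTX over STR for Vip (1.93) and TH over FT for Cck (1.28). For some neighbours the mean log2 ratio was smaller than its SD over the 6 sections, a spread that pools the ages. Among these were CTX and STR for Npy (0.18, SD 0.38) and HY and CTX for Sst (0.23, SD 0.45). CTX and HY for Lhx6 (0.08, SD 0.39) were another such pair. In both P21 sections Lhx6 was higher in the CTX (16.9 and 14.2 CPM) than in the HY (9.78 and 12.7 CPM), and the order was mixed in adult and aged sections. For Pvalb, TH over FT averaged 0.22 (SD 1.0), but this spread pools ages with opposite orders. Pvalb in the TH lay below the FT at P21 (124 and 103 against 224 and 234 CPM). In adults it lay above the FT (325 and 381 against 250 and 212 CPM). The same held in aged sections (609 and 552 against 317 and 240 CPM).

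To ask which members share cortical spots, CTX spots were thinned to 5000 UMIs, and each member was compared between spots with and without a UMI of Pvalb, Sst or Vip. Spots with Pvalb made up 39.4 to 56.7% of the CTX spots per section, those with Sst 64.4 to 82.1% and those with Vip 17.0 to 31.3%. In 12 of 27 pairs all 6 sections pointed one way, 9 higher and 3 lower (exact sign-flip p = 0.031), and none passed adjustment over the 27 (adjusted p = 0.0703). Here too a pair can pass only if most pairs reach the smallest p together. A spot covers several cells, so sharing a spot is company and not co-expression.

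Spots with Pvalb were richer in Gad1 (mean log2 ratio 0.76, SD 0.18), Slc32a1 (0.67, SD 0.21) and Lhx6 (0.63, SD 0.32), each in 6 of 6 sections. In adult section 1, Gad1 was 55.7 CPM in such spots and 32.3 CPM in the others. Calb2 (-0.70, SD 0.44) and Vip (-0.37, SD 0.23) were lower in spots with Pvalb, again in 6 of 6. Gad2 was higher in P21 and adult sections (0.04 to 0.34) and lower in both aged sections (-0.11 and -0.16). Sst ran from -0.02 to 0.05 in P21 and adult sections and was -0.44 and -0.49 in the aged ones. Platform and source of the mice differ with age here too. Npy was split between sections, and Cck was higher in 1 of 6.

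Spots with Sst were richer in Lhx6 (0.58), Npy (0.47), Gad2 (0.46), Calb2 (0.39) and Gad1 (0.22) in 6 of 6 sections, the last by as little as 0.01 in 1 section. Vip was lower in them in 6 of 6 (-0.42, SD 0.39), but turned to 0.13 when spots were compared within cortical clusters, where 3 of 6 sections were higher. Spots with Vip were richer in Calb2 in 6 of 6 sections (0.63, SD 0.45), by 0.01 in P21 section 1 and 1.36 in adult section 2. Within cortical clusters this held in 5 of 6 sections (0.56). Sst was lower in spots with Vip in 5 of 6 sections (-0.18). With spots thinned to 8000 UMIs, Gad1 (0.09) and Cck (0.10) were also higher beside Vip in 6 of 6. Pvalb was then lower beside Vip (-0.19) and Slc32a1 higher beside Sst (0.23) in 6 of 6. Other pairs lost their 6 of 6 at that depth. Gad2 (0.42) and Calb2 (0.65) beside Sst were higher in 5 of 6, and Vip beside Pvalb (-0.26) was higher in 1.

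**Figure D5:**
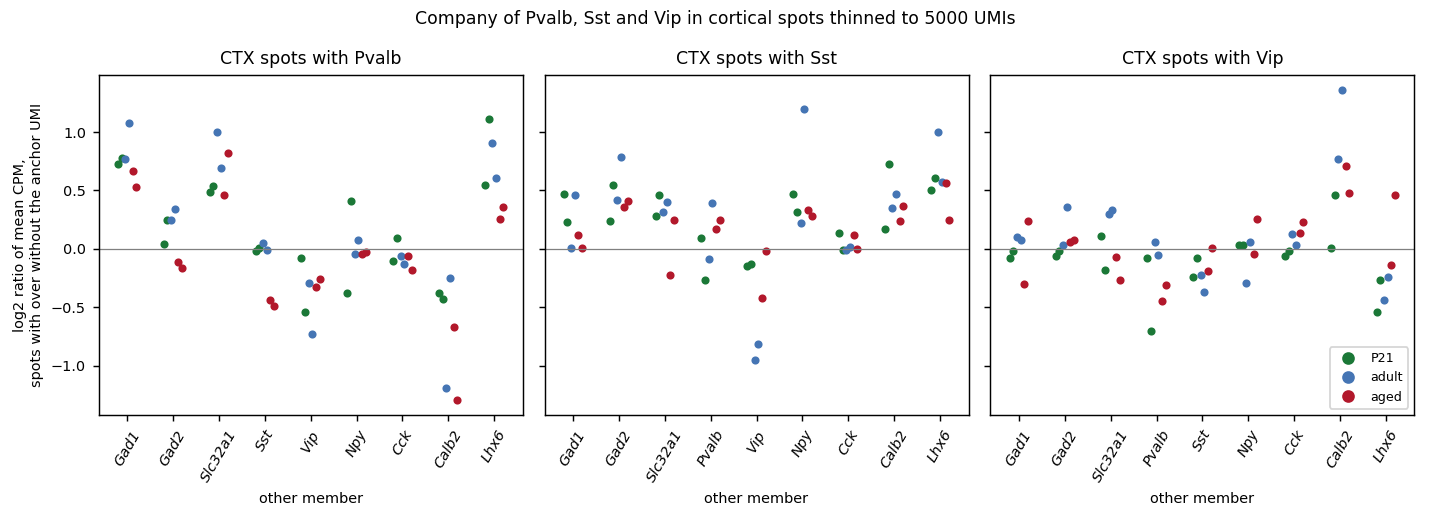
Points are the 6 sections, coloured by age, and give the log2 ratio of a gene's mean CPM in cortical spots with over without a UMI of Pvalb, Sst or Vip. Gad1, Slc32a1 and Lhx6 lie above 0 in every section beside Pvalb, Lhx6 and Npy beside Sst, and Calb2 beside Vip.

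Likeness of pattern was measured over 53 sums of region and section by Pearson's r of log2(CPM + 1) among 13391 genes. The sums share sections and depth, so r is a description. Gad2 and Slc32a1 were each other's closest gene (r = 0.9588), followed by the transcription factor genes Dlx5 and Dlx6 for both. For Gad1 these were Gad2 (0.9003), Lancl3 and Slc32a1. Pvalb was closest to Esrrg (0.8899), Kcnab3 and Ppargc1a, Sst to Ptprt (0.9054), Grik3 and Pak6, and Vip to Gm11549 (0.9335), Lamp5 and Ccn3. Cck was closest to Rtn4r (0.9244), Sprn and Faah, Calb2 to Dpysl5 (0.8909), Cbln2 and Slc17a6, and Npy to Tiam2 (0.8252), Sh3rf3 and Stac2. For Lhx6, Rab3b (0.8809) and Rasgrf2 (0.8588) were among the 3 closest genes. Between members, Npy and Sst had r = 0.7069, and Vip and Calb2 -0.2035.

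Other genes of the same pathways were taken from 5 lists and counted over whole sections without the members, beside the 8.06% (P21 vs. adult) and 28.4% (aged vs. adult) of all genes called. With lists this short, nothing is read from the counts. Of 6 further genes of GABA transport and breakdown, none was called in P21 vs. adult (edgeR, median log2 fold change 0.20). In aged vs. adult 2 were called, both lower: Slc6a13 (-1.04, adjusted p = 0.000470) and Slc6a12 (-0.77, adjusted p = 0.0241), GABA transporters known mainly from meninges and vessels. Slc6a13 stood at 6.50 and 4.66 CPM in adults and 3.0 and 2.83 CPM in aged sections. Of 15 further interneuron transcription factors, 2 were higher at P21 and 3 in aged sections. Nkx2-1 was 7.13 and 7.61 CPM at P21, 1.73 and 2.46 CPM in adults and 3.09 and 5.21 CPM in aged sections, and Lhx8, like Nkx2-1, was called in both comparisons. Nkx2-1 and Lhx8 also mark hypothalamic and basal forebrain neurons, and the sections differed in level there.

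Of 8 further Pvalb-class genes, 2 were higher at P21, Cox6a2 (0.79, adjusted p = 7.07e-05) and Pthlh (0.73, adjusted p = 0.0399), while Pvalb itself was lower. None of the 8 was called in aged vs. adult. Cox6a2, a cytochrome oxidase subunit found in fast-spiking neurons, held 74.0 and 83.0 CPM at P21 and 44.3 and 46.2 CPM in adults. Among 10 further Sst-class genes, Chodl was higher at P21 (0.94, adjusted p = 0.0142), and 3 were higher in aged sections, among them Pdyn (0.91) and Chrna2 (1.40), the latter at most 0.476 CPM in any section. Of 11 further genes of the Vip, Cck and Lamp5 classes, 3 were higher at P21, among them Chat (2.35) and Tac2 (1.35). In aged sections 3 were higher and 2 lower, among them Chat (1.92) and Crh (0.80, adjusted p = 0.000358) higher and Lamp5 lower (-0.70, adjusted p = 0.00324). Chat was scarce, with 3.97 and 3.06 CPM at P21, 0.514 and 0.878 CPM in adults and 1.56 and 4.10 CPM in aged sections. From which regions its UMIs came was not examined. Tac2 stood at 92.6 and 88.9 CPM at P21 and at 16.1 and 54.8 CPM in the 2 adult sections. Tac2 was also a leading gene of the HB, which had 28 and 23 spots at P21, 0 in adult section 1 and 9 in adult section 2, and the part of the HB in this difference was not tested.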

How the data were processed

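The deposited files hold UMI counts per gene and spot, not normalized, which the authors made with Space Ranger on mm10. The file headers give version 2.0.0 for P21 and adult and 3.1.1 for aged sections, while the submitters' processing notes list 2.1.0. The deposited spatial enrichment tables give Moran's I for each gene as a score, copied here. Their p-values were not used. The members and lists were chosen with earlier results of these data known.

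Spots under 250 genes or 500 UMIs were removed (20336 kept). Regions were rebuilt from 3000 variable genes without the members and listed genes (10 principal components, 20 neighbours, Leiden resolution 0.6, 21 clusters, named by marker panels). The 1641 spots of 2 unnamed clusters entered no region. Aged sections lost the smallest share of their spots this way, 3.78 and 4.99%. Adult sections lost 11.1 and 9.33%, and P21 sections 8.89 and 11.3%. Whether this uneven loss bears on the regional comparisons was not tested. The authors' spot labels were not used here. V1 slides share up to 2997 spot barcodes by array design, v2 slides 3364, and v1 and v2 slides none.

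UMIs were summed per section and region. edgeR 4.0.16 (TMM, filterByExpr, glmQLFit, glmQLFTest, age as the only term) fitted all 6 sums, with p-values adjusted by Benjamini-Hochberg over all genes. SE was taken as the absolute log2 change over F's square root. Sections come from separate animals only as far as the labels' "biol_rep" says. On simulated data a 2-fold change was called for 75.5% of 200 genes over whole sections and 69.0% in the STR in P21 vs. adult. DESeq2 1.42.0, plain CPM, other filters, glmTreat against 1.5, thinning, core spots, resolution 0.7, a replicate block and leaving out each section were alternatives. Sign-flip tests used a pseudocount of 1 CPM and SciPy 1.17.1. Named genes are the members, up to 3 called genes per list with the largest change, the 3 genes most alike each member (2 genes that this rule picks are not reported here), and the tracers Agrp, Slc17a7, Ppp1r1b and Mbp. Hcrt and Pmch were named after their values were seen. No sequence is shown, since none carries these results.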

Additional observations from a re-analysis of the deposited data

Results flagged for a closer look

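The change with age differed between regions, by the region-by-age terms of edgeR's test with a section block, for 3 members when P21 was set against adult and for all 10 when aged was. At P21 these were Calb2 (adjusted p = 4.49e-05), with log2 fold changes of 2.38 in the HP and 0.26 in the HY, Cck (0.0236), ranging from 0.26 (TH) to -0.49 (HY), and Npy (0.0273), ranging from 1.07 (HY) to -0.25 (HP). Npy and Cck no longer passed without the FT (adjusted p = 0.0687 and 0.0550), nor Npy in core spots, those surrounded by spots of their own region (0.0619).

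In aged vs. adult, Gad1 (8.86e-05), Gad2 (3.19e-08) and Slc32a1 (0.000454) had their lowest changes in the TH (-0.34, -0.91 and -1.32). Sst (1.11e-06), Vip (9.81e-07) and Lhx6 (0.00120) were also lowest there (-2.50, -2.66 and -1.95). Cck (2.58e-11) and Calb2 (3.72e-05) were lowest in the STR (-2.09 and -2.75), and Npy (0.000422) ranged from 1.26 in the CTX to -0.32 in the TH. Pvalb (0.0432) was 0.74 in the TH and -0.82 in the STR, and no longer passed without the FT (adjusted p = 0.0820) or in core spots (0.0758). Aged sections differ from adults in platform and source of the mice too. In 13 of 15 pairs of a tracer gene and a region other than its reference region, both aged sections lay below both adult sections. Each tracer was in the marker panel that named its reference region.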

How the results depend on the processing

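Of 38 calls of a member in a region or whole section, 24 held under every alternative run, 6 were lost with glmTreat alone, and 8 were lost under others as well. With glmTreat, which tests against a fold change of 1.5, the members called went from 2 to 1 over whole sections and from 7 to 4 over regions in P21 vs. adult, and from 27 to 17 over regions in aged vs. adult. Region-by-age terms in P21 vs. adult went from 3 members to 1 without the FT. Npy in the FT in aged vs. adult, 0.44 in all spots, turned to -0.61 in core spots (adjusted p = 0.00108), and Vip in spots with Sst turned to 0.13 within cortical clusters; the cause was not tested. Leaving out each section gave 2 to 2 and 7 to 10 calls in P21 vs. adult, and 2 to 3 and 23 to 30 in aged vs. adult, over whole sections and regions. Same-numbered sections did not deviate together (r from -0.38 to 0.08), so the numbers do not pair them, and the fit with a replicate block gave 2, 7, 2 and 27 calls, with Lhx6 in the STR lost (0.73, adjusted p = 0.0549) and Pvalb in the HP gained (-0.60, adjusted p = 0.0163) in aged vs. adult. All-spot fits by region were not run, since removed spots have no region. With 2 sections per age, the edgeR tests rest on a spread shared between ages.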

Other observations

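A cluster led by Mfge8, Reln and Ndnf, 1001 spots with no region name, held 381 and 288 CPM of Npy at P21, 358 and 212 CPM in adults and 676 and 1580 CPM in aged sections. Sst there was 716 and 781, 1080 and 566, and 1490 and 1536 CPM, and Lhx6 was 14.9 and 17.1, 19.5 and 15.5, and 35.2 and 75.4 CPM. In a cluster led by Ptgds, Eln and Fmod, 640 spots, Vip was 24.5 and 24.1 CPM at P21, 30.7 and 46.9 CPM in adults and 131 and 81.0 CPM in aged sections. Together these clusters held 320 and 376 spots at P21, 324 and 304 in adults, and fewer in aged sections, 139 and 178. They were not fitted.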
